A study of Mus musculus with 10 samples.

Results

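The supporting cells of the organ of Corti are the epithelial cells that surround and hold the mechanosensory hair cells, and both arise from a shared pool of prosensory progenitors. Chromatin around 9 genes used as supporting cell markers was described here: Prox1, Trpm3, Slc1a3, Cep41, Nrcam, Bace2, Fabp7, Ngfr and S100a1. Members were every ATAC peak and every Sox4 peak within 100 kb of the body of any of these genes, which gave 156 of 76102 open regions and 7 of 1701 Sox4 sites. The 9 genes are 9 of 20665 autosomal coding genes of the mm10 gene table. Trpm3, Slc1a3, Cep41 and Prox1 were chosen by the ranks of their Sox4 peaks and set apart from the rest, so the presence of those sites is a description and not a result.

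All tissue was mouse cochlea of stage E13.5 (embryonic day). ATAC-seq, in which a transposase cuts accessible DNA, was made in 2 SoxC double knockout and 3 wildtype libraries, whose titles say whole organ while their protocol describes an isolated epithelial layer. Sox4 binding was read by CUT&RUN with a guinea pig antibody, in 3 replicates of wildtype epithelial progenitors sorted for p27kip1-GFP (the titles call this assay ChIP, the protocol CUT&RUN). The ATAC labels give the knockout as SoxC double knockout, without the deleted genes or the driver of recombination. The single-cell label of the same genotype names a Pax2cre SoxC fl/fl strain, in which recombination follows Pax2-expressing cells of the ear and other tissues. No label says whether a library came from 1 embryo or from several.

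Prox1, a homeodomain transcription factor, is among the early nuclear markers of cells that become supporting cells. Slc1a3 and Fabp7, a glutamate transporter and a fatty acid binding protein, are best known from astrocytes and radial glia and are also used for supporting cells beside the inner hair cells. Ngfr, the low-affinity neurotrophin receptor, marks pillar cells and also neural crest and glia. SoxC factors bind DNA through an HMG box, which contacts short AT-rich sequences related to ACAAAG and ACAATG. The files gave no expression values with gene names, so none of the 9 genes could be checked as a marker by its RNA.

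The start sites of the marker genes showed the range of outcomes, and the sequence before 5 of them is given here because each stands for a different pattern. Each run is the 250 bases before a RefSeq start site in the mm10 build (GRCm38.p6), 5′ to 3′ on the strand of the gene. Capitals mark a match on either strand to ACAAAG, to the related motif ACAATG or to a further Sox motif, AACAAT, and a run with no capitals has no match.
Fabp7 (chr10:57784673-57784922, plus strand): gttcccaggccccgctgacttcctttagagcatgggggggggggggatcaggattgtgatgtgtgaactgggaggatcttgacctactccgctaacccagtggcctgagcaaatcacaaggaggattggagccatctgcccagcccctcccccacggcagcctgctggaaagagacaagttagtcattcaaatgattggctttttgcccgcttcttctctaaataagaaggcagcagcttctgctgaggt
S100a1 (chr3:90514331-90514580, minus strand): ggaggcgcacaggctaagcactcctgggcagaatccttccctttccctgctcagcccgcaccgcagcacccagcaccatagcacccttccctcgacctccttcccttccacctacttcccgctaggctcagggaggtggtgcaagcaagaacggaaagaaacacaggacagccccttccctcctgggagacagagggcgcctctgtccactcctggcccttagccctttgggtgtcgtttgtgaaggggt
Nrcam (chr12:44328635-44328884, plus strand): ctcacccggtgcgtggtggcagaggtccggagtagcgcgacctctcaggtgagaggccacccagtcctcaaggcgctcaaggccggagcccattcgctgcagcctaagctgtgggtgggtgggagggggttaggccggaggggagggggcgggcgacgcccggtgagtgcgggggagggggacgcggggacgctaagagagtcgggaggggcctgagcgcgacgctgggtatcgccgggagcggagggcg
Cep41 (chr6:30693750-30693999, minus strand): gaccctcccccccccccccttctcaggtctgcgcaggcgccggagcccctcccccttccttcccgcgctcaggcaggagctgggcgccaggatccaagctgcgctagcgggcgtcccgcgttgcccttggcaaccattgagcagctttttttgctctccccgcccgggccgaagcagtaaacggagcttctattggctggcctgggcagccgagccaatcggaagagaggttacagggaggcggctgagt
Prox1, second start site (chr1:190169516-190169765, minus strand): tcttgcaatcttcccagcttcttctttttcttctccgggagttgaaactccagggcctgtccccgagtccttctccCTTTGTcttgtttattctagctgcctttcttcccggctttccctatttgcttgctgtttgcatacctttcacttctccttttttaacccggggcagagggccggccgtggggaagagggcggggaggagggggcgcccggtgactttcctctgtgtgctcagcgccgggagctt
The Fabp7 sequence lies in a window found among the strongest peaks of wildtype libraries only, the S100a1 sequence in one found among those of both knockout libraries only, the Nrcam sequence at a weaker rank in the knockout and the Cep41 sequence at a stronger one. The second Prox1 start site held the only match among the 10 promoters of the 8 genes in the promoter table, a copy of ACAAAG on the opposite strand, 174 bases before the start. Of all 32851 promoters of that table, 29.6% held at least 1 of the 3 motifs, 16.5% held ACAAAG, while ACAATG was found in 10.7% and the last motif, which can overlap it, in 9.42%. At this Prox1 promoter Sox4 had a peak in replicate 3 alone, at rank 6667. Bace2 had no promoter in the table. The sequences of the Sox4 sites themselves are not printed, since no genome was used here.

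The lists give no reads, so the depth of each library is unknown. Peaks were ranked within each library by -log10 p, with rank 1 the strongest, and the top 50000 autosomal ATAC peaks per library were compared as 501-bp windows around their summits. A region was knockout-only when both knockout and no wildtype library held it, and wildtype-only when all 3 wildtype and no knockout library held it. Rank 50000 lay at a -log10 p of 104 and 50.5 in the knockout libraries, against 19.0, 10.5 and 8.75 in the wildtype libraries. The names of the knockout lists carried a p threshold and a peak cap that those of the wildtype lists did not, and the wildtype lists held no peaks on chromosome X, which was left out. Genotype and list processing cannot be told apart. Gene ends of epithelial markers were open in all 5 libraries for 5 of 6 genes and those of prosensory markers for 6 of 6. Gene ends of 2 of 6 hair cell, 2 of 4 glial, 3 of 5 neuronal and 2 of 5 mesenchymal markers were also open in all 5. Of 5 markers of blood, endothelium and macrophages, Spi1 was open in all 5 libraries, Kdr in 1 knockout and 3 wildtype libraries, and Pecam1, Cdh5 and Ptprc in none.

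Around the 9 genes the classes stood close to their shares in the genome. Of the 156 regions, 13 (8.33%) were knockout-only, against 7.96% of all regions. Wildtype-only regions numbered 8 (5.13%), against 6.57% of all regions, and 56 (35.9%) were held by all 5 libraries, against 37.2%. The 2 knockout libraries held 107 and 117 of the 156 regions (68.6% and 75.0%), against 65.6% and 65.5% of all regions. The 3 wildtype libraries held 100, 94 and 98 (64.1%, 60.3% and 62.8%), against 65.0%, 64.5% and 64.6% of all regions. None of the 21 genotype-specific regions lacked a peak altogether in the other genotype: all 8 wildtype-only regions met some peak in each full knockout list, and 7 of the 13 knockout-only regions overlapped 1 in all 3 full wildtype lists.

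**Figure D1:**
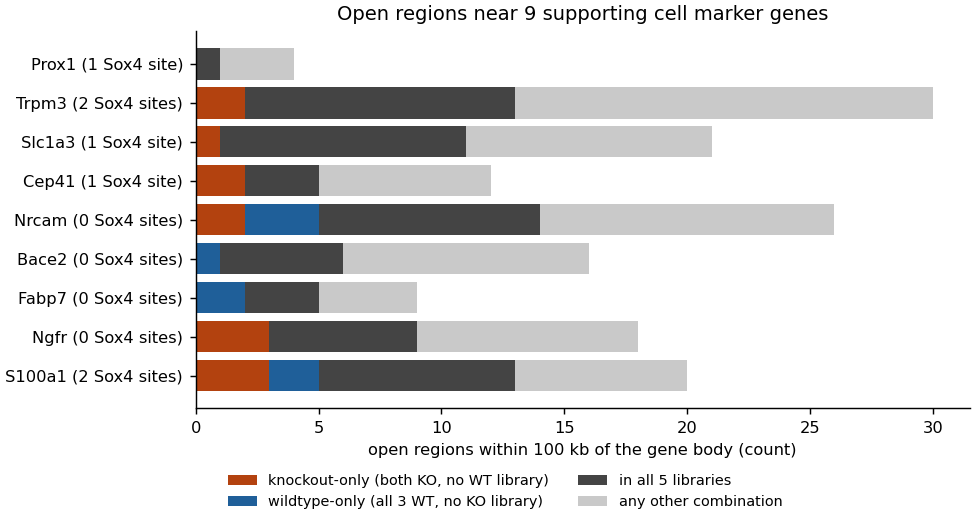
Open regions within 100 kb of each gene (horizontal axis, count), stacked by the libraries that held them, with the number of Sox4 sites beside each gene name. Knockout-only regions lay near 6 genes (Trpm3, Slc1a3, Cep41, Nrcam, Ngfr and S100a1) and wildtype-only regions near 4 (Nrcam, Bace2, Fabp7 and S100a1), against 56.0% and 31.1% of coding genes.

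The transcription factor gene Prox1 lay in sparse open chromatin, with 4 regions in 252793 bp of gene and flanks on chromosome 1. The region over its first start site (190170478 to 190170986) ranked 25051 and 24682 in the knockout libraries, against 13987, 14757 and 12124 in the wildtype libraries. Both knockout ranks were weaker than every wildtype rank. Fold enrichment there was 8.06 and 8.18 in the knockout and 10.7, 8.53 and 8.52 in the wildtype libraries, so the knockout values were lower without overlap, by a margin smaller than the spread among the wildtype values. The -log10 p went the other way, with both knockout values above the wildtype ones.

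Inside Prox1, 28646 bp from its nearest start site, lay a Sox4 site (190140273 to 190140869) with ranks of 2420 in Sox4 replicate 1 and 3597 in replicate 3. In replicate 2 its peak ranked 36453, outside the 20000 strongest. The open region at the site was weak in every library, at ranks 41977 and 42616 in the knockout and 43336, 43853 and 51752 in the wildtype. It was the only 1 of the 7 Sox4 sites outside a region held by all 3 wildtype libraries, and it missed that class by the rank in wildtype replicate 3 alone.

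Slc1a3 encodes the glutamate and aspartate transporter GLAST and lies on the minus strand of chromosome 15. Of its 10 regions in all 5 libraries, 7 had both knockout ranks weaker than every wildtype rank, 1 had both stronger and 2 overlapped. Over all regions in all 5 libraries, 27.7% had the weaker and 29.3% the stronger order. With any 1 of the 5 ATAC libraries left out the count was again 7, but this is a looser rule under which it could hardly fall. The count was 4 when peaks were ranked by fold enrichment, which also changed the set of shared regions. At each of the 7 regions the fold values themselves overlapped between genotypes.

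The Sox4 site beside Slc1a3 (8632100 to 8632708) lay 1416 bp beyond the end of the gene farthest from its start site, and it was the only site near the 9 genes found in all 3 Sox4 replicates, at ranks 1964, 39 and 6113. Its Sox4 fold enrichment was 5.69, 7.44 and 3.24 in replicates 1 to 3. The open region at the site (8632205 to 8632786) ranked 8296 and 4973 in the knockout libraries, against 4650, 2908 and 2237 in the wildtype libraries. ATAC fold enrichment there was 9.51 and 11.9 in the knockout and 10.5, 10.8 and 9.41 in the wildtype libraries, so the folds overlapped where the ranks did not. Inside the gene, a region at 8667665 to 8668217 had a wider gap in rank, at 31401 and 35368 in the knockout, against 13053, 6260 and 10478 in the wildtype. Its folds of 10.1 and 8.33 in the knockout and 12.8, 13.48 and 8.92 in the wildtype overlapped.

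A single knockout-only region stood inside Slc1a3, 66035 bp from the start site (8644264 to 8644772). It ranked 20929 and 15244 in the knockout libraries, against 84827, 58423 and 121113 in the full wildtype lists. Fold enrichment was 14.4 and 13.9 in the knockout and 4.34, 4.56 and 2.85 in the wildtype libraries. The class fixes the order of the ranks, and the higher fold in both knockout libraries was shared by 12 of the 13 knockout-only regions near the 9 genes and by 99.5% of all knockout-only regions. The start site region (8710215 to 8710735) overlapped, at 14173 and 11021 in the knockout and 12691, 21659 and 9291 in the wildtype.

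**Figure D2:**
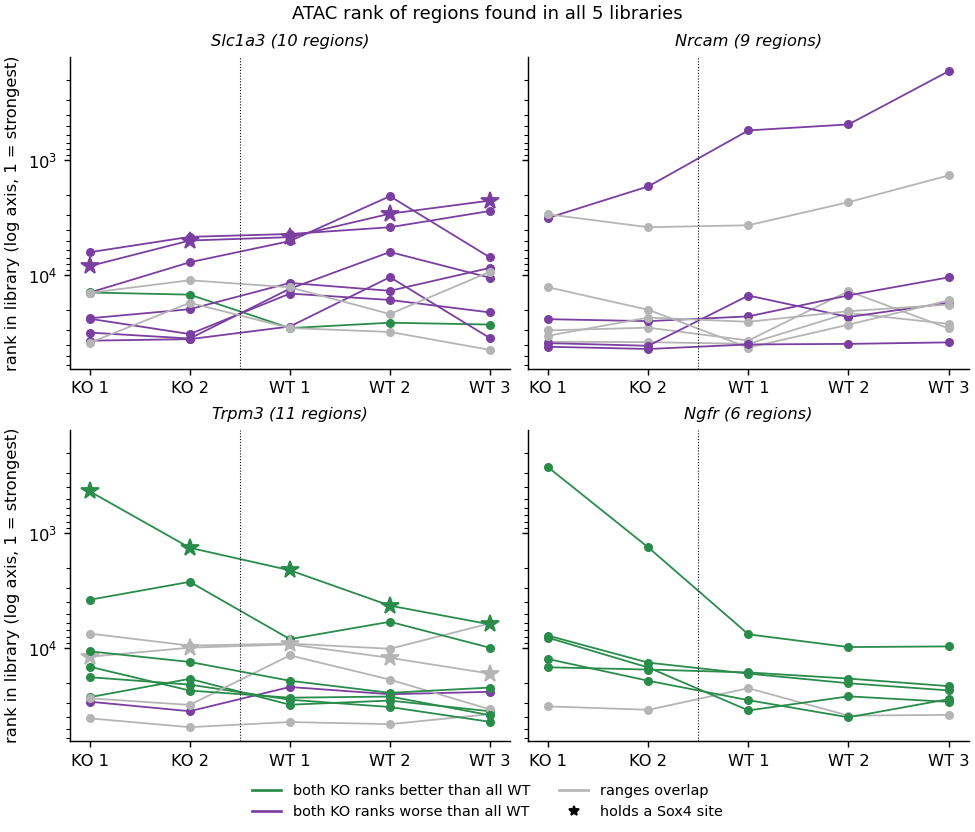
ATAC rank (log axis, 1 the strongest, drawn upward) of each region held by all 5 libraries near Slc1a3, Nrcam, Trpm3 and Ngfr, with SoxC knockout libraries left of the dotted line and wildtype libraries right of it. Of the Slc1a3 regions 7 of 10 have both knockout ranks weaker, of the Ngfr regions 5 of 6 have both stronger, and stars mark regions with a Sox4 site. Over all regions in all 5 libraries, 27.7% have both knockout ranks weaker and 29.3% both stronger.

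Trpm3, the gene of a calcium-permeable cation channel, spans 857614 bp of chromosome 19, the longest body of the 9 genes. It had 30 open regions, at 2.84 per 100 kb, against 9.84 per 100 kb near S100a1. In the full lists 159 and 122 peaks lay near Trpm3 in the knockout libraries, against 65, 56 and 52 in the wildtype libraries. The full lists are not of equal length, with 208902 and 192810 merged peaks in the knockout and 165038, 145099 and 173032 in the wildtype. How many coding genes had the same order in the full lists is not given here. Among the 50000 strongest peaks the counts were 21 and 23 in the knockout and 23, 17 and 12 in the wildtype, which overlapped. Much of the surplus in the full knockout lists thus lay among weak peaks.

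Both Trpm3 Sox4 sites were inside the gene and in regions held by all 5 libraries. The first (22476079 to 22476645), 27871 bp from the second start site, ranked 1192 in Sox4 replicate 1 and 123 in replicate 2, and 27617 in replicate 3. Its open region ranked 433 and 1340 in the knockout libraries, against 2102, 4267 and 6210 in the wildtype libraries, so both knockout ranks were stronger. Fold enrichment at this region was 17.1 and 20.7 in the knockout and 19.7, 15.1 and 13.3 in the wildtype libraries and overlapped. The other site (22657050 to 22657656) ranked 12356 and 307 in Sox4 replicates 1 and 2 and had no peak in replicate 3. Its ATAC ranks were 11873 and 9896 in the knockout and 9268, 12135 and 16633 in the wildtype, which overlapped.

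Of the 11 Trpm3 regions in all 5 libraries, 6 had both knockout ranks stronger, 1 had both weaker and 4 overlapped. The stronger and weaker orders were found at 29.3% and 27.7% of all such regions. The first start site region ranked 7464 and 9497 in the knockout, against 9122, 10111 and 6089 in the wildtype. The second start site region (22447806 to 22448355) ranked 26656 and 18465 in the knockout, against 30987, 28525 and 35329 in the wildtype. The start sites of the gene thus differed by rank, with overlapping ranks at the first and stronger knockout ranks at the second. They did not differ in the order of the folds, which were higher in both knockout libraries at both start sites. At the first the folds were 21.85 and 20.73 in the knockout, against 16.65, 12.7 and 13.57 in the wildtype. At the second they were 9.89 and 13.29 in the knockout, against 7.54, 7.23 and 5.93 in the wildtype. This order of folds was found at 40.4% of all regions in all 5 libraries. Both knockout-only regions of Trpm3 lay inside the gene, and in both the wildtype ranks were all beyond 50000, with 56738, 51544 and 85852 at the first (22503431 to 22503954) and 51769, 74501 and 50600 at the second (22915714 to 22916220). The wildtype replicate 3 rank at the second lay just beyond the limit.

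Cep41 encodes a centrosomal protein needed for the glutamylation of tubulin in cilia, and its locus on chromosome 6 also holds Mest, Copg2 and a group of carboxypeptidase genes. Of the 12 regions, 4 had Cep41 as the nearest coding gene. The start site region (30693573 to 30694094) ranked 5040 and 5045 in the knockout libraries, against 7359, 6138 and 8964 in the wildtype libraries, so both knockout ranks were stronger. The Sox4 site inside the gene (30665028 to 30665582) ranked 400 in Sox4 replicate 1 and 1345 in replicate 3, and 55124 in replicate 2. Its open region ranked 25831 and 22556 in the knockout and 16931, 15627 and 35446 in the wildtype, with overlap through wildtype replicate 3. Both knockout-only regions of this locus lay outside Cep41, inside Cpa4 and 2602 bp from Cpa1.

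**Figure D3:**
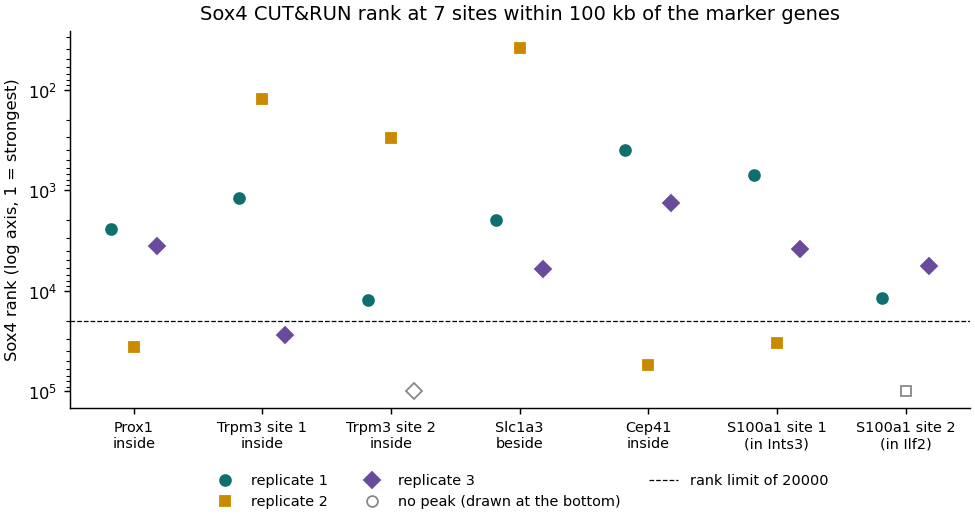
Rank of the Sox4 peak in each CUT&RUN replicate (log axis, 1 the strongest, drawn upward) at the 7 sites, with the limit of 20000 dashed and open symbols where a replicate had no peak. Only the Slc1a3 site is above the limit in all 3 replicates, and every site is above it in replicate 1.

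The Sox4 replicates differed in which sites they carried. All 7 sites were within the 20000 strongest peaks of replicate 1, 3 in replicate 2 and 5 in replicate 3. With replicate 1 left out, the only site was at Slc1a3, and with replicate 3 left out there were 3 sites, at Trpm3 and Slc1a3. Replicate 1 has 2 deposited lists, and the labels do not say which is meant. With the further list in place of the one used, Trpm3 had 2 sites and Slc1a3 had 3, while Prox1, Cep41 and S100a1 had 0. Sites near 5 of the 9 genes compare with 24.3% of coding genes, a count that the choice of the genes used. No control antibody library was used here, so signal at any open chromatin and binding of Sox4 cannot be told apart.

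Regions open in all 3 wildtype libraries held 6 of the 7 sites (85.7%, 95% exact binomial interval 42.1 to 99.6, for counting error only), against 60.0% of all sites. Of the 7 sites, 5 lay near Trpm3, Slc1a3, Cep41 and Prox1, which were chosen by their Sox4 peaks. The interval does not account for that choice, and the shares in this paragraph only describe the chosen genes. Of the Sox4 windows of single replicates near the 9 genes, 7 of 29, 7 of 26 and 6 of 31 in replicates 1 to 3 (24.1%, 26.9% and 19.4%) met such regions, against 8.65%, 9.22% and 10.9% of all windows. Near Slc1a3, 2 of 4, 4 of 6 and 1 of 3 windows did so, and near Prox1 0 of 3, 0 of 4 and 0 of 6.

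Nrcam encodes a neuronal adhesion molecule of the immunoglobulin family and had the most wildtype-only regions of the 9 genes, 3 of 26, along with 2 knockout-only regions, all inside the gene on chromosome 12. The strongest of the wildtype-only regions (44492639 to 44493151) ranked 71595 and 56136 in the full knockout lists, against 19297, 13696 and 7751 in the wildtype libraries. Fold enrichment was 7.35 and 7.56 in the knockout and 15.5, 12.7 and 14.8 in the wildtype libraries. The -log10 p overlapped, at 53.8 and 40.9 in the knockout and 61.9, 44.5 and 51.8 in the wildtype. The class fixes the order of the ranks, which follow -log10 p within each library, so significance is not independent of the class. Over the genome, both knockout -log10 p values were higher at all 6059 knockout-only regions. At wildtype-only regions both were higher in 25.5% and lower in 16.3%. Fold was not used to set the class, but it comes from the same peaks and is not independent of the class either. Both knockout folds were higher at 99.5% of all knockout-only regions and lower at 50.2% of all wildtype-only regions. Fold and significance gave different answers at this Nrcam region. The knockout-only regions of Nrcam lay nearer the far end of the gene (44547940 to 44548443 and 44595999 to 44596510). Their folds were 9.40 to 14.0 in the knockout and 3.37 to 6.62 in the wildtype.

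The Nrcam start site region (44328635 to 44329423) ranked 38772 and 40897 in the knockout libraries, against 14962, 22984 and 17318 in the wildtype libraries. Fold enrichment at it was 5.58 and 5.18 in the knockout, against 9.09, 5.64 and 5.51 in the wildtype, so the folds overlapped. A region 59396 bp before the gene (44268552 to 44269390), inside Pnpla8, ranked 3162 and 1684 in the knockout, against 549, 487 and 168 in the wildtype. Of the 9 Nrcam regions in all 5 libraries, 4 had both knockout ranks weaker, 5 overlapped and none had both stronger. The weaker and stronger orders were found at 27.7% and 29.3% of all such regions. The nearest Sox4 site lay 118426 bp from the gene, just outside the limit of 100 kb, while the site farthest inside it lay 77184 bp from S100a1.

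Fabp7 encodes a fatty acid binding protein that is expressed in radial glia, and its 9 regions on chromosome 10 included 2 wildtype-only ones. The first covered its start site (57784545 to 57785153) and ranked 73743 and 52559 in the full knockout lists, against 26798, 48862 and 33171 in the wildtype libraries. Fold enrichment at the start site was 6.87 and 7.47 in the knockout and 10.3, 4.73 and 5.48 in the wildtype libraries. The -log10 p was 50.6 and 46.0 in the knockout and 43.7, 11.2 and 14.0 in the wildtype. The start site was thus wildtype-only by rank, overlapping by fold and higher in the knockout by significance. The other region, 4687 bp before the gene, ranked 114250 and 87267 in the knockout, against 43437, 29612 and 40891 in the wildtype, with folds of 4.19 and 4.33 in the knockout, against 7.09, 6.53 and 4.72 in the wildtype. Its folds did not overlap. Fabp7 was the only 1 of the 9 genes with fewer peaks in both knockout libraries (3 and 4) than in every wildtype library (6, 6 and 9), an order found at 10.9% of coding genes.

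Bace2 encodes an aspartyl protease related to the beta-secretase of amyloid precursor protein. Its only genotype-specific region, 24377 bp from the gene on chromosome 16 (97331804 to 97332351), was wildtype-only and ranked 180887 and 148161 in the full knockout lists, against 43435, 27223 and 22871 in the wildtype libraries. Fold enrichment was 2.55 and 2.69 in the knockout and 7.66, 7.53 and 7.52 in the wildtype libraries. The -log10 p was 6.68 and 5.83 in the knockout and 23.7, 22.4 and 20.9 in the wildtype. Of the 8 wildtype-only regions near the 9 genes, this was the only 1 at which all 3 measures were lower in both knockout libraries, which held for -log10 p at 16.3% of all wildtype-only regions. The fold was lower without overlap in 6 of the 8, against 50.2% of all wildtype-only regions. The regions at both ends of the Bace2 gene overlapped in rank between genotypes.

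Ngfr lies on chromosome 11 with Nxph3, Spop and Phb within 100 kb. Over all regions in all 5 libraries, 29.3% had both knockout ranks stronger and 27.7% both weaker. Of the 6 Ngfr regions in all 5 libraries, 5 had both knockout ranks stronger and 1 overlapped, with none the other way. The strongest (95666563 to 95667094), 78865 bp before the gene and nearest to Phb, ranked 268 and 1331 in the knockout libraries, against 7579, 9778 and 9648 in the wildtype libraries. Its folds were 22.1 and 23.1 in the knockout and 19.0, 13.8 and 12.2 in the wildtype, so rank and fold had the same order there. Inside the gene, a region 1033 bp from the start site (95586128 to 95586665) ranked 12434 and 19197 in the knockout, against 28310, 39896 and 27745 in the wildtype. The start site itself ranked 49945 and 59382 in the knockout and 33458, 46242 and 53712 in the wildtype, which overlapped. Only 2 of the 5 regions had Ngfr as the nearest coding gene. With peaks ranked by fold enrichment, which also changed the set of shared regions, the count was 2. With any 1 ATAC library left out it was 5 to 7, under a looser rule by which it could hardly fall. The 3 knockout-only regions of the locus lay 61039 to 98929 bp from Ngfr and nearer to Nxph3 or Phb.

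**Figure D4:**
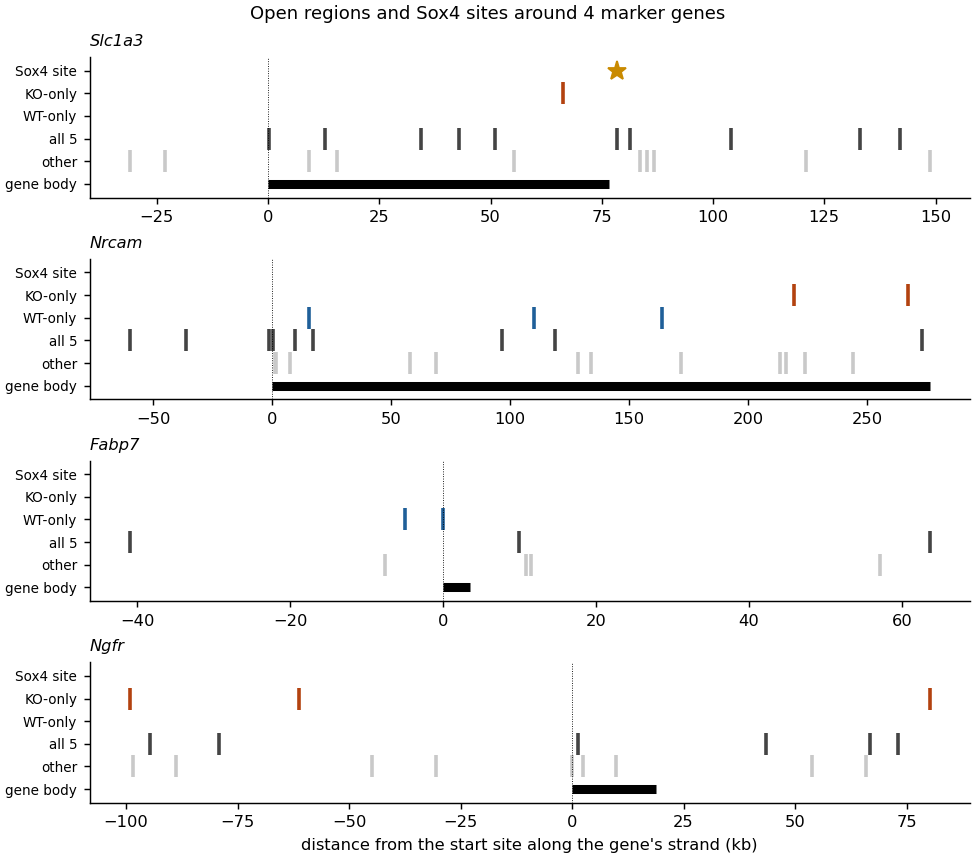
Positions of open regions and Sox4 sites relative to the start site of Slc1a3, Nrcam, Fabp7 and Ngfr (horizontal axis, kb along the strand of the gene), with a row for each class and a bar for the gene body. The wildtype-only regions of Nrcam and Fabp7 lie inside or just before the gene, the knockout-only regions of Ngfr outside it, and the Sox4 site of Slc1a3 just beyond the far end of the gene.

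S100a1 encodes a calcium-binding protein and stands on chromosome 3 in a cluster of S100 genes beside Ints3, Npr1, Ilf2, Snapin and Chtop, so that only 2 of its 20 regions overlapped it or had it as the nearest coding gene, 1 of them tied with S100a13. Those regions lay next to each other in opposite classes. The region inside the gene (90513145 to 90513725) was wildtype-only, at ranks 27929, 27578 and 30477 in the wildtype, and the region over the start site (90514129 to 90514630) was knockout-only, at ranks 20290 and 9714 in the knockout. In both knockout libraries 1 peak, after overlapping peaks were joined, covered both windows with its strongest summit over the start site. The pair thus differed in the position of the strongest summit and not in the presence of a peak. Whether a weaker knockout summit lay in the wildtype-only window was not examined. In wildtype replicate 1 a joined peak of rank 25142 also reached over the start site, with its strongest summit elsewhere. The other wildtype-only region of the locus lay inside S100a4 and the other 2 knockout-only regions lay inside Ints3 and 3403 bp from Snapin.

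S100a1 was placed among the genes without a site, although 2 Sox4 sites lay within 100 kb of it, 34493 and 77184 bp away. They lay over the start sites of Ilf2 and Ints3. The open region at the Ints3 site ranked 3 and 28 in the knockout libraries, against 110, 268 and 535 in the wildtype libraries. The region at the Ilf2 site ranked 12 and 31 in the knockout, against 578, 2539 and 4042 in the wildtype. Both knockout ranks were stronger at both regions, which held the best knockout ranks near any of the 9 genes. That order was found at 29.3% of all regions in all 5 libraries. Fold enrichment overlapped at both. It was 22.0 and 23.9 in the knockout and 25.3, 23.2 and 20.1 in the wildtype at the Ints3 site. At the Ilf2 site it was 20.5 and 23.4 in the knockout and 23.9, 17.1 and 13.1 in the wildtype.

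**Figure D5:**
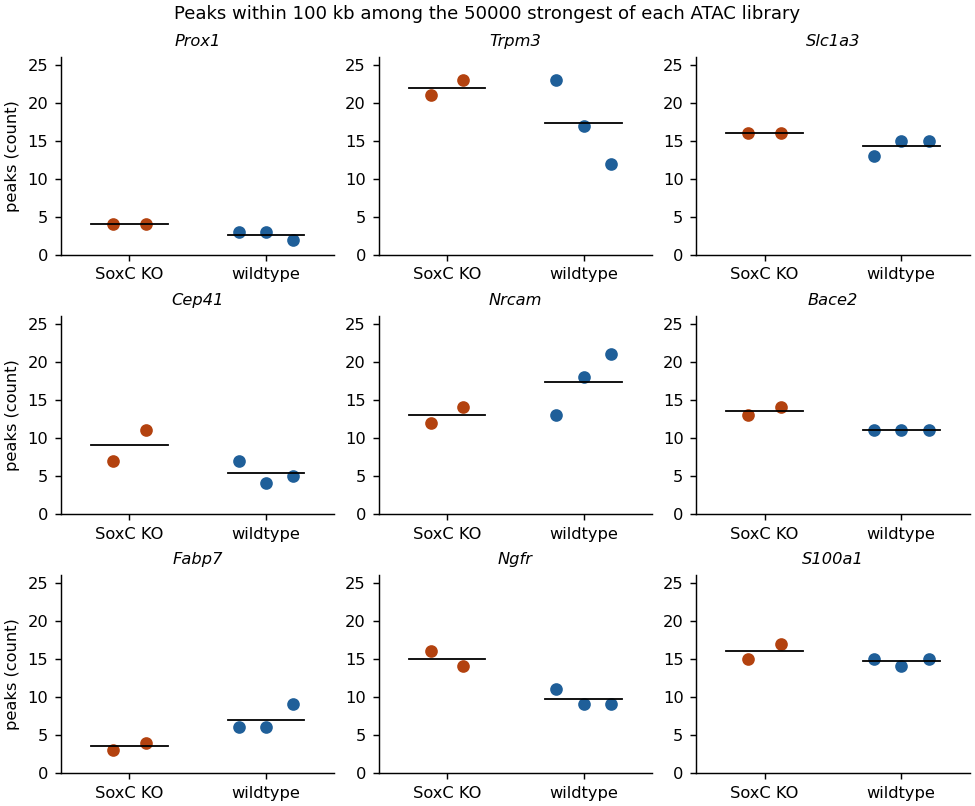
Number of peaks within 100 kb of each gene among the 50000 strongest of each ATAC library (vertical axis, count), with SoxC knockout libraries left and wildtype libraries right, a point for each library and a line at the mean. The points do not overlap for Prox1, Slc1a3, Bace2, Fabp7 and Ngfr, and Fabp7 is the only gene of these with fewer peaks in the knockout. Over all coding genes, 31.4% had more peaks in both knockout than in every wildtype library and 10.9% had fewer.

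Counts of peaks per gene did not overlap between genotypes at 5 of the 9 genes. More peaks in both knockout than in every wildtype library were found near Prox1, Slc1a3, Bace2 and Ngfr, an order found at 31.4% of coding genes. Fewer were found near Fabp7, an order found at 10.9% of coding genes. Ngfr had 16 and 14 peaks in the knockout and 11, 9 and 9 in the wildtype, with means of 15 ± 1.41 (SD, n = 2) and 9.67 ± 1.15 (SD, n = 3). The difference of 5.33 peaks had a two-sided exact permutation p of 0.2 (0.36 adjusted over the 9 genes), the smallest that 10 splits of 5 libraries allow. The other 8 genes had exact permutation p-values of 0.2 to 0.6, so none of the 9 could pass a threshold of 0.05 in this design. Nrcam had 12 and 14 peaks in the knockout and 13, 18 and 21 in the wildtype, which overlapped.

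Wildtype-only regions were counted in the group of Trpm3, Slc1a3, Cep41 and Prox1 and in the rest. Near Trpm3, Slc1a3, Cep41 and Prox1, 5 of 67 regions (7.46%) were knockout-only and 0 were wildtype-only. Near the other 5 genes 8 of 89 were knockout-only and 8 wildtype-only (8.99% each). Of all regions 7.96% were knockout-only and 6.57% wildtype-only. S100a1 belongs to the second group although it has Sox4 sites within 100 kb. With the genes split by any Sox4 site within 100 kb, 2 of 87 regions were wildtype-only near the 5 genes with a site and 6 of 69 near the 4 without. With all deposited peaks the order turned round, with 3 wildtype-only regions near Trpm3, Slc1a3, Cep41 and Prox1 and 2 near the other 5 genes. The counts were 1 and 3 with 25000 peaks, 3 and 7 with ranks by fold enrichment, and 1 and 8 with knockout replicate 1 left out. No test was made of this split, since the genes were chosen with these results known. Of the regions in all 5 libraries, 29.3% over the genome had both knockout ranks stronger and 27.7% both weaker. In the group of 4 genes these orders were found at 8 of 25 (32.0%) and 9 of 25 (36.0%), 7 of the 9 near Slc1a3. In the other group the counts were 9 and 4 of 31 (29.0% and 12.9%), with all 4 of the weaker ones near Nrcam. The group of 4 genes thus held different orders, with Slc1a3 and Trpm3 apart.

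Rank, fold and significance did not give the same picture of the genotypes. At the 56 member regions in all 5 libraries, both knockout ranks were stronger in 17 (30.4%) and weaker in 13 (23.2%), against 29.3% and 27.7% of all such regions. Fold enrichment was higher in both knockout libraries in 23 and lower in 2, at the Prox1 start site and before Nrcam, against 40.4% and 5.30% of all such regions. By -log10 p, both knockout values were higher in 54 of the 56, against 96.7% of all such regions. A weaker knockout rank was therefore seldom a lower fold and at none of the 13 a lower -log10 p. The -log10 p at rank 50000 moved with genotype as well, and its part in the order of ranks was not tested.

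Among 30 other genes of supporting cells and their progenitors, 56 of 477 regions (11.7%) were knockout-only, against 7.96% of all regions, and 21 (4.40%) were wildtype-only, against 6.57%. The next 6 genes are named because they had the most genotype-specific regions of the 30, so they do not stand for the rest. Lfng, which encodes a modifier of Notch receptors, had 8 knockout-only regions and 1 wildtype-only region, and the receptor gene Notch1 had 9 and 0. Heyl, a Notch target gene, had 6 and 0, and Kcnj10, the gene of a potassium channel of glia and supporting cells, had 2 and 3. Cdkn1b, which encodes the p27kip1 protein, had 2 and 2, and the SoxE gene Sox10 had 3 and 1. Other Notch pathway genes of the 30 differed from Lfng, Notch1 and Heyl. Hey1 had 0 and 2, Hey2 and Jag1 had 0 and 1 each, and Hes1 and Hes5 had 1 and 1 each. Sox4 sites lay near 18 of the 30 genes (60.0%), against 24.3% of coding genes, with 6 near Cdkn1b. The 30 genes were chosen with earlier results of these data known, so these shares are a description only. Of the 202 regions in all 5 libraries, 68 (33.7%) had both knockout ranks stronger and 42 (20.8%) both weaker, against 29.3% and 27.7% of all such regions.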

How the data were processed

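The authors deposited 1 peak list per library, and a further list for Sox4 replicate 1 whose name carries another library tag. Which of the 2 belongs to that replicate is not stated, so the further list was used as an alternative. In the lists, as the authors deposited them, each peak has a fold enrichment over local background (a ratio), its significance as -log10 p and -log10 q, and its summit as an offset in bp. Per the submitters' processing notes, STAR, MACS2 and deepTools were used, with UMI-tools for Sox4, on mm10 and GRCm38; versions were not given in the sources used here. The 2 single-cell matrices carry no gene names and were not used here.

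Autosomal peaks that overlapped within a library were joined under their strongest summit. The top 50000 ATAC and 20000 Sox4 peaks per library became windows reaching 250 bp either way from the summit, and windows that overlapped formed 1 region. A Sox4 site needed at least 2 of 3 replicates. Region values are those of the best-ranked peak of the full list whose window, or failing that whose extent, met the region. Full-list ranks come from lists of unequal length (192810 and 208902 merged knockout peaks, 145099 to 173032 wildtype), so orders were counted only for regions in all 5. Promoters and gene bodies came from RefSeq tables of GRCm38.p6. Peak counts were compared by exact permutation tests in SciPy 1.17.1. Functions were tested on simulated lists. All Sox4 sites and genotype-specific regions were eligible to be named, with start sites and the strongest shared regions. The members and lists were chosen with earlier results of these data known. Replicates may be technical, since no label names separate embryos.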

Additional observations from a re-analysis of the deposited data

How the results depend on the processing

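The classes come from the presence of peaks and had no paired form. For the peak counts, a replicate block on numbers 1 and 2, added after seeing the data, gave mean differences of 5 at Ngfr and -2.5 at Fabp7 and reversed none of the 9, with exact p-values of 0.5 to 1.0 (0.5 is the smallest 2 pairs allow). No label says that a number marks shared animals or days. Of 195 alternative values of the counts, 124 were within 1.5 times the reported one. With 25000 ATAC peaks, wildtype-only, shared, stronger and weaker regions numbered 4, 25, 9 and 6, with 1 wildtype-only region near Trpm3, Slc1a3, Cep41 and Prox1 and 3 near the other 5 genes (that last count was followed only after seeing the data). With 100000 peaks there were 23 knockout-only (16 near those 4 genes), 4 wildtype-only (all 4 near the other 5 genes), 108 shared, 35 stronger and 23 weaker regions, and 2 and 0 genes with more and fewer peaks in the knockout. With all deposited peaks there were 79 knockout-only (57 near the 4 genes), 5 wildtype-only (3 near the 4 genes, 2 near the others), 136 shared, 43 stronger and 30 weaker regions and 0 genes with fewer peaks. Within 10 kb there were 6 knockout-only (3 near the 4 genes), 32 shared and 6 stronger regions and 1 gene with more peaks. Within 50 kb there were 8 knockout-only and 9 stronger regions and 2 genes with more peaks. Inside gene bodies there were 6 knockout-only (3 near the 4 genes), 5 wildtype-only (all 5 near the others), 26 shared, 6 stronger and 8 weaker regions, 0 genes with more peaks, and 4 Sox4 sites in 3 genes, 3 of them open. Ranked by fold enrichment, 8 regions were stronger and 3 wildtype-only regions lay near the 4 genes. With no peak of any rank allowed in the other genotype, 0 regions of either class remained. For regions nearest to the gene itself, an alternative chosen after seeing the data, 6 were knockout-only (3 near the 4 genes), 37 shared and 10 stronger, and 4 genes had a Sox4 site. With all deposited Sox4 peaks 18 sites were found, and with all 3 replicates required 1 open site at 1 gene. With the further list of Sox4 replicate 1 in its place, 2 genes (Trpm3 and Slc1a3) had sites.

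With 1 ATAC library left out, there were 15 to 20 knockout-only regions (6 to 10 near the 4 genes, 10 without knockout replicate 1 and 8 without wildtype replicate 1), 20 both without knockout replicate 1 and without wildtype replicate 3. Wildtype-only regions near the 4 genes numbered 0 to 1 (1 without knockout replicate 1), and genes with fewer peaks 1 to 2 (2 without knockout replicate 2 and without wildtype replicate 1). Leaving an ATAC library out loosens the rules for these counts, so they could hardly fall. With 1 Sox4 replicate left out, 1 to 5 sites at 1 to 4 genes were found, 1 without replicate 1 and 3 at 2 genes without replicate 3. Open sites numbered 1 to 7 over both kinds, 1 without Sox4 replicate 1 and 3 without replicate 3.

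The mean difference in peaks reversed with 100000 peaks at Nrcam (0.167) and Bace2 (-1.67), with all peaks at Nrcam (4.5), within 10 kb at S100a1 (-1.17) and inside the gene body at Cep41 (-0.5). The cause of these changes was not tested. Read depth was not given, and rank 50000 lay at a different significance in each library.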
